A study of Mus musculus with 12 samples.

Results

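The leukocyte integrin subunits described here are *Itgal*, *Itgam*, *Itgax*, *Itgb2*, *Itga4*, and *Itgb7*, taken by gene symbol as 6 of the 18376 genes in a normalized count table of bone marrow-derived macrophages (BMDMs). All 6 had a mean of at least 5 normalized counts over the 12 libraries and were tested with 14318 genes in all. The BMDMs were grown from bone marrow progenitor cells of adult WT C57BL6/J mice, and every group received 50 ng/ml mouse recombinant M-CSF, the growth factor that drives macrophage formation. The 4 groups of 3 libraries were an untreated one (CTRL), one with activin A at 50 ng/ml (Act), one with its antagonist FST288, a follistatin form, at 250 ng/ml (FST), and one with the 2 agents together (Act + FST), and treatment lasted 6 days. The sources used here do not say whether the 3 libraries of a group came from separate mice or cultures, so the p-values measure the spread between these libraries.

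Integrins are adhesion receptors made of an alpha and a beta chain. The alpha chains αL (*Itgal*), αM (*Itgam*), and αX (*Itgax*) each pair with the β2 chain (*Itgb2*), and these receptors let leukocytes hold on to endothelium, to other immune cells, and to particles coated with complement. The α4 chain (*Itga4*) pairs with β7 (*Itgb7*) or with β1 (*Itgb1*) and binds to vascular adhesion molecules and fibronectin. Macrophages are known for αM and αX at their surface, whereas αL is best known from lymphocytes, monocytes, and neutrophils.

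The table holds read counts per gene, which the authors scaled for each library, called normalized counts here, with totals of 5643708 to 5955400 per library. These totals do not show the original depth. In bulk RNA, fewer cells of a type and less RNA per cell cannot be told apart. The 7 macrophage markers were all listed, and their sum was between 10859 and 12203 normalized counts in the 12 libraries. Replicates with the same number moved together across groups, so a fit with the replicate number as a block was also made, and its adjusted p is given wherever it changes the call of a subunit.

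Of the 6 subunits, *Itgal* was the one that rose with activin A, by 1.24 on the log2 scale. No rise of *Itgal* was called in cells that received FST288 together with activin A. *Itgax* had lower values in Act and its lowest in Act + FST, with calls that depended on the replicate block. *Itgam*, *Itgb2*, *Itga4*, and *Itgb7* differed between Act and CTRL by at most 0.08 on the log2 scale in either direction.

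**Figure D1:**
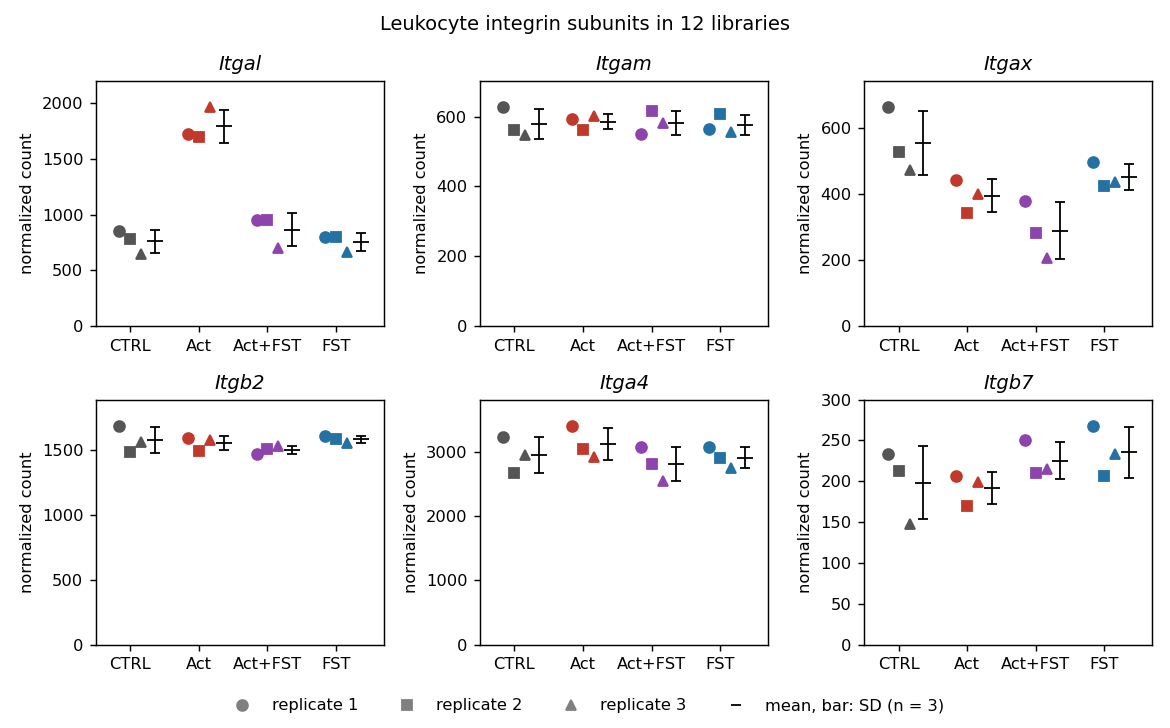
Normalized counts (y axis, linear, each panel with its own scale from 0) of the 6 integrin subunits in the 4 groups (x axis). Each symbol is 1 library with its shape giving the replicate number, and the horizontal line and bar give the mean and SD (n = 3). The 3 Act libraries of *Itgal*, from 1692 to 1963, lie above all other libraries, and *Itgax* reaches its lowest value, 206, in Act + FST.

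The gene of the αL chain, *Itgal* (ENSMUSG00000030830), lies at chr7:127296260-127335138 on the + strand of GRCm38, and its exons cover 6569 bases, none of them shared with another gene. In CTRL its normalized counts were 851, 781, and 650 in replicates 1 to 3. The Act libraries had 1725, 1692, and 1963 normalized counts. All Act libraries thus lay far above all CTRL libraries. The Act + FST libraries had 951, 947, and 698, and the FST libraries had 800, 802, and 662. Both of these groups overlapped with CTRL, and neither overlapped with Act.

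The mean of *Itgal* was 761 ± 102 (SD, n = 3) in CTRL and 1793 ± 148 in Act. This is a fitted log2 fold change of 1.24 (SE 0.13, 95% confidence interval 0.96 to 1.52), or 2.37-fold, with a limma adjusted p of 2.98e-05. Within replicate numbers, the rise was 1.02, 1.11, and 1.59 on the log2 scale. *Itgal* was the 1 subunit of 6 called at an adjusted p of at most 0.05 in Act versus CTRL, where 20.2% of all genes tested were called. It was also the 1 subunit with a fold change of at least 2 in addition, the rule for a differentially expressed gene (DEG), which 5.66% of the genes tested met.

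Against Act + FST (865 ± 145, n = 3), *Itgal* in Act was higher by 1.06 on the log2 scale (SE 0.13, 95% confidence interval 0.78 to 1.34, limma adjusted p = 0.000102). This was again the 1 called subunit, and 21.3% of all genes tested were called in Act versus Act + FST. The fold of 2.09 was just above the DEG threshold of 2, and 5.83% of genes were DEGs. Without Act + FST replicate 3 the log2 difference was 0.91, and without Act replicate 3 it was 0.9951, both below that threshold and both still called. The comparisons with CTRL and with Act + FST share the Act libraries.

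Whether αL transcript was raised by activin A in the presence of the antagonist was asked by comparing Act + FST with CTRL and with FST. *Itgal* differed by 0.18 (95% confidence interval -0.10 to 0.46) from CTRL, with all 3 replicate numbers higher in Act + FST (0.16, 0.28, and 0.10 on the log2 scale) and overlapping groups. The limma adjusted p was 1, and 0.594 with the replicate block. From FST it differed by 0.19 (95% confidence interval -0.09 to 0.47, adjusted p = 1). All 3 replicate numbers were again higher in Act + FST (0.25, 0.24, and 0.08 on the log2 scale), with overlapping groups. FST alone (755 ± 80.3, n = 3) differed from CTRL by -0.01 on the log2 scale (95% confidence interval -0.29 to 0.27). The test of the difference between both effects of activin A, (Act minus CTRL) minus (Act + FST minus FST), gave 1.05 for *Itgal* on the log2 scale (SE 0.18, 95% confidence interval 0.66 to 1.45, limma adjusted p = 0.00419). *Itgal* was the 1 subunit called in that test, which called 6.74% of the genes tested, 2.65% with a fold of at least 2 in addition, *Itgal* among them.

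**Figure D2:**
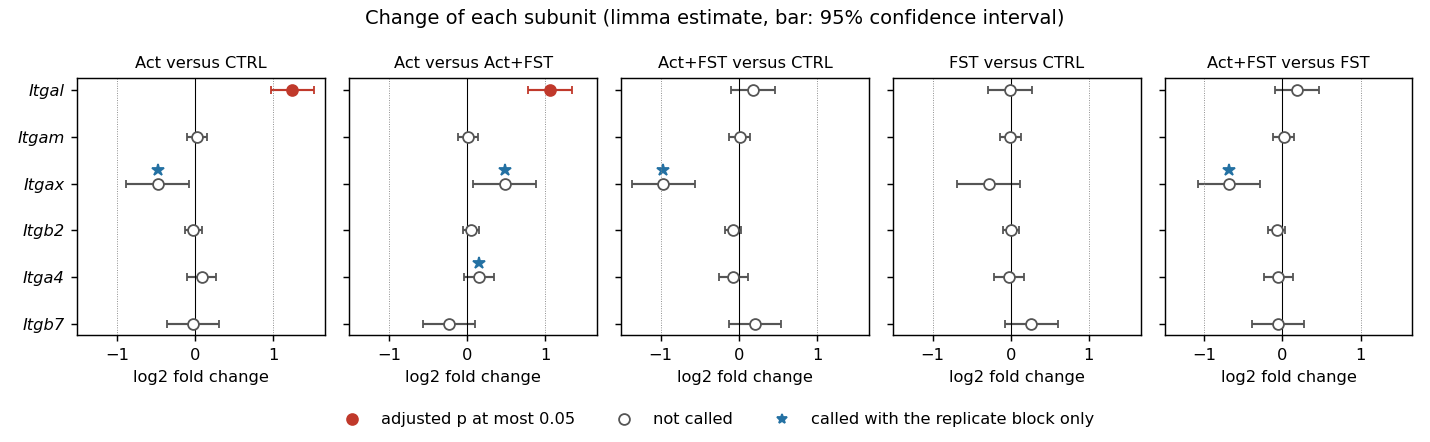
Log2 fold changes (x axis) of the 6 integrin subunits in the comparisons between groups, from the limma fit over all 12 libraries, with points for the estimates (filled red at an adjusted p of at most 0.05, open otherwise, a blue star where called with the replicate block only) and bars for the 95% confidence intervals. *Itgal* stands at 1.24 in Act versus CTRL and 1.06 in Act versus Act + FST, while its intervals in the comparisons without Act include 0.

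Of the 10633 other genes with a mean of at least 50, those whose values followed *Itgal* most closely over the 12 libraries were *Il13ra1*, *Ptger4*, and *Tlr2*. Pearson's r on the log2 scale was 0.992 for *Il13ra1*, a chain of the interleukin-13 receptor, whose mean went from 373 normalized counts in CTRL to 669 in Act. It was 0.986 for *Ptger4*, a prostaglandin E2 receptor (252 in CTRL and 501 in Act), and 0.986 for *Tlr2*, a receptor for bacterial lipoproteins (819 and 1147). These values describe a likeness over libraries that share the same 4 treatments, and they carry no test.

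*Itgal* is also a gene of other leukocytes, so markers of these were summed per library. Of 8 T and NK cell markers, the table used here lists 3, with *Cd3e* and *Cd3g* not among them, and their sum was 10 to 12 normalized counts in Act and 4 to 7 in the other groups. The 10 neutrophil granule markers summed to 1569 to 2205 in Act and 1700 to 2112 in CTRL, with overlap, and most of the sum came from *Ltf*, *Ngp*, and *Mmp8*. Of the 10, 2 were called and both fell in Act versus CTRL, the primary granule genes *Mpo* (log2 -2.02, limma adjusted p = 0.00923) and *Elane* (-1.64, adjusted p = 0.0253), and both were also lower in Act than in Act + FST. The 7 monocyte markers summed to 2687 to 2984 in Act and 1475 to 2342 in CTRL, 1632 to 2703 in Act + FST, and 1376 to 2230 in FST. Of the 7, *Ccr2* was called higher in Act versus CTRL (log2 1.04, adjusted p = 0.0425), and with the block 2 were called higher and 2 lower. The monocyte sums moved with *Itgal*, as did *Mpo* and *Elane* in the opposite direction, and the part of these in its rise was not tested. Sums over all 12 libraries were 76 to 126 for B cell markers, 9 to 46 for mast cell and basophil markers, and 28 to 213 for stromal markers, and each of these overlapped between Act and CTRL.

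The αM chain gene, *Itgam* (ENSMUSG00000030786, chr7:128062640-128118491, + strand), and the αX chain gene, *Itgax* (ENSMUSG00000030789, chr7:128129547-128150657, + strand), are direct neighbours. The gap between them is 11055 bases, with 0 protein-coding genes wholly inside. The gene model *Gm49368*, which overlaps *Itgam* on the same strand, extends into this gap. *Itgal* lies 727501 bases before *Itgam*, with 38 protein-coding genes wholly in between. The 250 bases before the transcription start of both neighbours are shown because *Itgam* and *Itgax* lie side by side and had different patterns across the groups. They come from RefSeq on GRCm38.p6, 5′ to 3′ on the + strand, at chr7:128062390-128062639 and chr7:128129300-128129549. Capitals mark GAGGAA, the core that the macrophage factor PU.1 can bind, and CAGAC, a core that SMAD proteins can bind, each on either strand.
*Itgam*: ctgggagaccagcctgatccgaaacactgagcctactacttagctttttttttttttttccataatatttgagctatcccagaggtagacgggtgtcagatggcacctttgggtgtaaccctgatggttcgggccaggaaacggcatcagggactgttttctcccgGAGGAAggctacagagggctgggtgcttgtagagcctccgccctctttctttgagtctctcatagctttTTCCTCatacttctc
*Itgax*: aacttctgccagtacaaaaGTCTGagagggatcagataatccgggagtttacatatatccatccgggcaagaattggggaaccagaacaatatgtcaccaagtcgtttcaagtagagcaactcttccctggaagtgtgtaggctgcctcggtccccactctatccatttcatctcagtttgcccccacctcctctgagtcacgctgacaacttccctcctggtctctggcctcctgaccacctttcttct
The *Itgam* stretch held GAGGAA at 2 places, beginning 84 bases before the start on the + strand and 15 bases before it on the - strand, and no CAGAC. The *Itgax* stretch held no GAGGAA and 1 CAGAC, beginning 231 bases before the start. Of 32851 RefSeq promoters cut to the same length, 23.25% held GAGGAA and 42.19% held CAGAC on either strand, and the marked letters of different motifs overlapped at 0 bases. Neither stretch held TATAAA, which 12.37% of promoters did. Of the 6 subunits, 4 matched the promoter table (*Itgam*, *Itgax*, *Itga4*, and *Itgb7*), and *Itgal* and *Itgb2* did not. In the same windows *Itga4* held 0 GAGGAA and 1 CAGAC, and *Itgb7* held 0 and 2. These matches are a description of the letters only.

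*Itgam* was level across the 4 groups. Its normalized counts in replicates 1 to 3 were 627, 561, and 547 in CTRL and 594, 562, and 602 in Act. They were 549, 616, and 581 in Act + FST and 565, 608, and 555 in FST. The 4 groups overlapped throughout, with no library below 547 or above 627. The means were 578 ± 42.7 in CTRL and 586 ± 21.2 in Act (SD, n = 3 each), and the log2 fold change was 0.02 (SE 0.06, 95% confidence interval -0.11 to 0.15, limma adjusted p = 0.86). The upper bound of this interval lies below the lower bound of 0.96 for *Itgal*.

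What the *Itgam* values count is limited by an overlapping gene model. *Gm49368* runs on the same strand and shares 3450 of the 5024 exonic bases of *Itgam* (68.67%), and the authors left out reads that overlapped several genes. Of the 30 exonic parts of *Itgam*, 25 are shared in full. The remaining 1574 bases include the last part of 1186 bases, so that most of the measurable sequence lies at the 3′ end of the gene. *Gm49368* itself had 0 to 5 normalized counts per library. Per kilobase of all exonic sequence *Itgam* had 116 normalized counts over the 12 libraries, and per kilobase of unshared sequence it had 369. The first value includes bases whose reads were left out, so it understates the level of *Itgam* against other genes. Each fold change between groups compares the same bases.

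**Figure D3:**
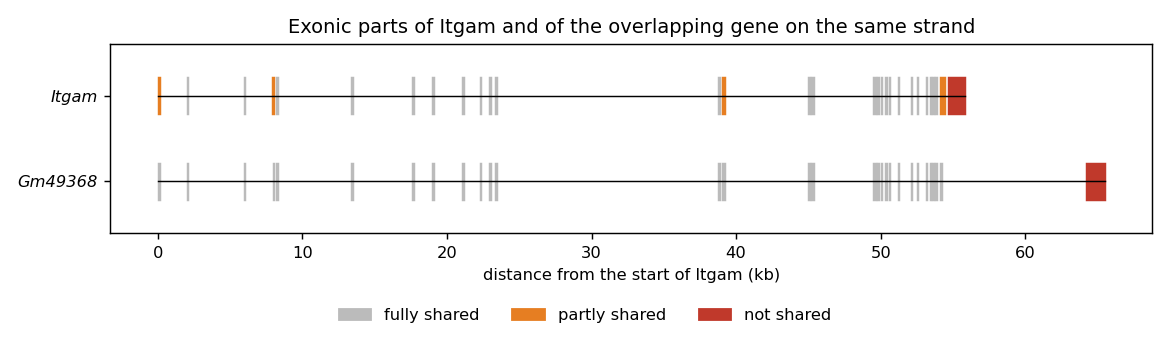
Exonic parts of *Itgam* drawn to scale along the gene (x axis, distance from the start in kb), with those of *Gm49368* below. Grey parts are shared in full, orange parts in part, and red parts not at all (thin outlines keep short parts visible), and 1186 of the 1574 unshared bases of *Itgam* are its last part, in red.

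*Itgax* was highest in untreated cells. Its normalized counts in replicates 1 to 3 were 663, 527, and 473 in CTRL and 442, 342, and 400 in Act. They were 379, 283, and 206 in Act + FST and 497, 424, and 437 in FST. All Act and all Act + FST libraries lay below all CTRL libraries, and the FST libraries overlapped with both CTRL and Act. Replicate 1 was the highest of its group in all 4 groups, as it was for *Itga4*, *Itgb7*, and the library totals.

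In order, the *Itgax* means were 554 ± 97.9 in CTRL, 453 ± 38.9 in FST, 395 ± 50.2 in Act, and 289 ± 86.7 in Act + FST (SD, n = 3 each). Neighbouring groups in this order overlapped. Act differed from CTRL by -0.48 on the log2 scale (SE 0.18, 95% confidence interval -0.88 to -0.08) with a limma adjusted p of 0.0874. With the replicate block the SE was 0.11 and the adjusted p 0.00336, in a fit that called 31.5% of all genes tested. It was lower in 3 of 3 replicate numbers (-0.58, -0.62, and -0.24).

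Cells that received FST288 together with activin A had the lowest *Itgax* values. Act + FST differed from CTRL by -0.97 on the log2 scale (95% confidence interval -1.37 to -0.56), with -0.81, -0.90, and -1.20 in replicates 1 to 3. The limma adjusted p was 0.42 (unadjusted p = 0.000193), and 0.00199 with the replicate block. In Act + FST versus CTRL limma called 0 of the 6 subunits and 0% of all genes tested (655 genes and 1 subunit had an unadjusted p under 0.05). With the block it called 1 subunit, *Itgax*, and 0.559% of genes (80).

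Act + FST was also lower than FST for *Itgax*, by -0.68 on the log2 scale (95% confidence interval -1.09 to -0.28, limma adjusted p = 0.81, and 0.0211 with the block). That comparison called 0% of genes and 0 subunits without the block (502 genes and 1 subunit at an unadjusted p under 0.05), and 0.217% of genes (31) and 1 subunit with it. *Itgax* in Act was 0.48 above Act + FST (95% confidence interval 0.08 to 0.88, limma adjusted p = 0.0853, and 0.00318 with the block, which called 32.6% of genes). Their libraries overlapped, and the difference rested on which Act + FST libraries entered. It was 0.70 without Act + FST replicate 1 (adjusted p = 0.00916) and 0.26 without Act + FST replicate 3 (adjusted p = 0.317). FST differed from CTRL by -0.28 (95% confidence interval -0.68 to 0.12, limma adjusted p = 1, and 0.911 with the block), with 3 of 3 replicate numbers lower. In FST versus CTRL, 0 subunits and 0% of genes were called in either fit, and 299 genes and 0 subunits had an unadjusted p under 0.05 without the block.

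The difference between the effects of activin A without and with FST288 was 0.20 for *Itgax* (95% confidence interval -0.37 to 0.77, limma adjusted p = 0.755, and 0.429 with the block). *Itgax* is best known as a marker of dendritic cells. All 8 dendritic cell markers were listed, and their sums were 111 to 242 normalized counts in CTRL, 178 to 272 in Act, 122 to 215 in Act + FST, and 123 to 191 in FST. These sums overlapped between the groups, and *Xcr1* had a mean below 5. Single markers went both ways, with a median log2 fold change of 0.65 in Act versus CTRL over the 7 tested. *Cd209a* was the 1 called, with a log2 difference of -2.27 from CTRL (limma adjusted p = 0.0111) and of -1.95 from Act + FST (adjusted p = 0.023), and with the block 3 were called higher and 1 lower. Their part in the *Itgax* values was not tested.

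*Itgb2*, the β2 chain that all of these alpha chains need, was level across the groups. The gene (ENSMUSG00000000290) lies at chr10:77530252-77565708 on the + strand. Its normalized counts in replicates 1 to 3 were 1683, 1483, and 1561 in CTRL and 1592, 1486, and 1570 in Act. They were 1464, 1505, and 1525 in Act + FST and 1603, 1579, and 1553 in FST. The Act libraries lay inside the range of CTRL. Act versus CTRL gave a log2 fold change of -0.02 (SE 0.05, 95% confidence interval -0.13 to 0.08, limma adjusted p = 0.8). All Act + FST libraries were below all FST libraries, by -0.08 on the log2 scale with a limma adjusted p of 1.

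Levels between genes can be compared per length of exonic sequence, with a limit at high levels. No gene exceeded 0.883 normalized counts per exonic base on average, and *Itgb2* had 0.508. Whether high levels are understated was not tested. *Itgb2* had 508 normalized counts per exonic kilobase over the 12 libraries, above 99.7% of all genes, followed by *Itga4* with 211, *Itgal* with 159, *Itgam* with 116, *Itgax* with 88.0, and *Itgb7* with 76.8.  With unshared sequence alone, *Itgam* moved to the second place. *Itgal*, *Itgam*, and *Itgax* share the β2 chain, so the share of each in their sum per exonic base was computed per library.

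Shares over all exonic bases understate *Itgam*, because reads on its shared bases were left out. Per unshared base it had 61.5% in CTRL. Over all exonic bases, the CTRL shares were 33.4% ± 1.36 for *Itgal*, 33.4% for *Itgam*, and 33.2% ± 1.72 for *Itgax* (SD, n = 3). In Act the share of *Itgal* was 57.8% ± 2.07, that of *Itgam* was 24.8%, and that of *Itgax* was 17.4% ± 1.80. The *Itgal* share was higher in Act by 24.4 percentage points than in CTRL and by 15.2 than in Act + FST, with no overlap. Each of these gave p = 0.1 in the two-sided exact permutation test, the smallest that 3 against 3 libraries allow. In Act + FST the shares were 42.6% ± 2.20, 38.0%, and 19.3% ± 3.90, and in FST they were 35.4% ± 1.84, 35.5%, and 29.1% ± 2.17, for *Itgal*, *Itgam*, and *Itgax*. The *Itgax* share was -15.8 percentage points from CTRL to Act and differed by -1.93 between Act and Act + FST (exact permutation p = 0.6). Each share is a part of the same sum, so a rise of *Itgal* alone lowers the shares of *Itgam* and *Itgax*. The *Itgam* share was lower in Act although its mean was 578 normalized counts in CTRL and 586 in Act.

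**Figure D4:**
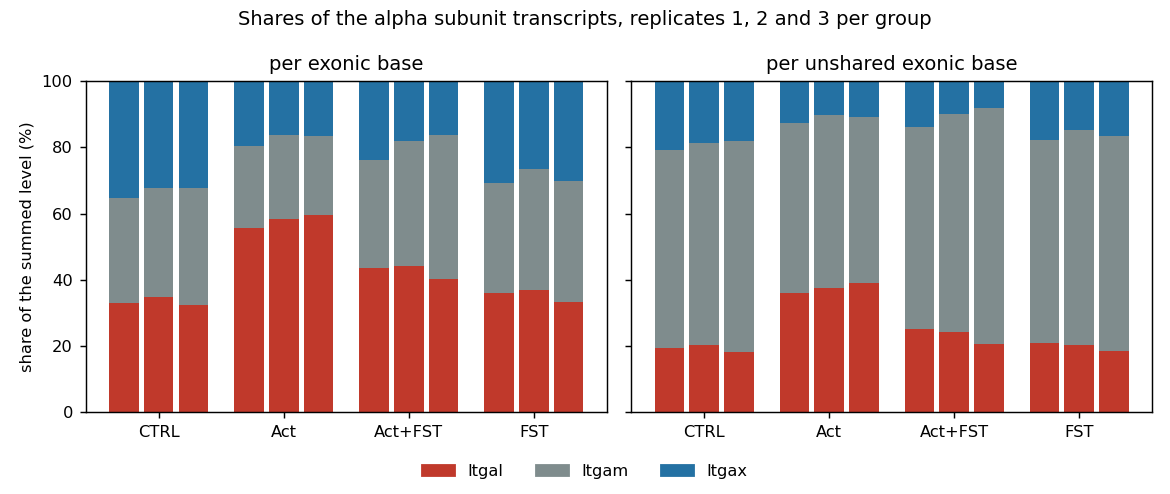
Share in percent (y axis) of *Itgal*, *Itgam*, and *Itgax* in the sum of the 3 per exonic base, in the 4 groups (x axis), with 1 stacked bar per library in the order of replicates 1 to 3, computed per exonic base (left) and per unshared exonic base (right). The red *Itgal* part averages 57.8% for Act against 33.4% for CTRL on the left, and 37.5% against 19.3% on the right.

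Per base that no other gene shares, *Itgam* took most of the sum, 61.5% in CTRL and 51.2% in Act. On that scale *Itgal* went from 19.3% to 37.5%, with 23.3% in Act + FST and 19.9% in FST. *Itgax* went from 19.2% to 11.3%, with 10.7% in Act + FST and 16.4% in FST. The higher *Itgal* share in Act was thus present on both scales, and the order of the 3 genes was not the same.

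The α4 gene, *Itga4* (ENSMUSG00000027009, chr2:79255426-79333123, + strand), had the highest normalized counts of the 6 and the longest exonic sequence, 13978 bases. Its normalized counts in replicates 1 to 3 were 3241, 2672, and 2961 in CTRL and 3411, 3047, and 2922 in Act. They were 3073, 2819, and 2553 in Act + FST and 3082, 2912, and 2747 in FST. The 4 groups overlapped. Act differed from CTRL by 0.08 on the log2 scale (SE 0.09, 95% confidence interval -0.11 to 0.27, limma adjusted p = 0.584). Act differed from Act + FST by 0.15 (95% confidence interval -0.04 to 0.34), with an adjusted p of 0.252 and of 0.0226 with the replicate block, where the SE was 0.05. Of its exonic bases, 1124 (8.04%) lie opposite to *Cerkl*, and the strand setting of the counting is not given in the sources used here.

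*Itgb7*, the β7 chain that pairs with α4 or αE (ENSMUSG00000001281, chr15:102215995-102231944, - strand), had the lowest mean of the 6 over the 12 libraries. Its normalized counts in replicates 1 to 3 were 234, 213, and 148 in CTRL and 207, 170, and 199 in Act. They were 251, 210, and 215 in Act + FST and 268, 206, and 233 in FST. Act and CTRL overlapped, with a log2 difference of -0.03 (SE 0.15, 95% confidence interval -0.36 to 0.31, limma adjusted p = 0.936). All Act libraries lay below all Act + FST libraries, by -0.23 on the log2 scale (adjusted p = 0.337).

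Further partners were measured in the same libraries. *Itgb1*, the β1 chain and the other partner of α4, ranged from 1623 to 1864 in CTRL and from 1659 to 1740 in Act, with a log2 difference of -0.04 (limma adjusted p = 0.619). It had 422 normalized counts per exonic kilobase, against 76.8 for *Itgb7*. *Itgad*, the αD chain gene 3718 bases after *Itgax*, was low at 60, 32, and 32 in CTRL and 64, 37, and 37 in Act (log2 difference 0.17, limma adjusted p = 0.842). Its Act + FST values were 55, 19, and 14. *Itgae*, the αE chain that pairs with β7, was listed at 1 to 2 normalized counts in CTRL, whereas the Act libraries had 4, 14, and 8, and its mean was under 5, so it was not tested.

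Other genes of the integrin pathway were read from lists of ligands, of proteins that switch integrins on from inside the cell, of inhibitors, of signalling proteins downstream, and of linkers to the actin cytoskeleton. These lists were chosen with earlier results of these data known, so their counts of called genes are a description only. Against the 20.2% of all genes called in Act versus CTRL, 10.3% higher and 9.97% lower, the 8 ligand genes tested of 17 listed had 3 higher and 2 lower, with a median log2 fold change of 0.16 (0.0036 over all genes tested). *F11r*, which codes for the αL ligand JAM-A, rose from 27.0 ± 14.2 normalized counts in CTRL to 431.7 ± 27.4 in Act and was 38.3 ± 6.1 with FST288 added (SD, n = 3 each). *Icam1*, the main αL ligand, rose by 0.22 on the log2 scale (768 to 898 normalized counts, limma adjusted p = 0.0243). *Icam2*, another αL ligand, fell by 0.46 (84.0 to 61.0, adjusted p = 0.028). *C3*, whose cleavage product is a ligand of αM and αX, rose from 805 to 2220 normalized counts (adjusted p = 0.000795). In Act versus Act + FST, where 11.1% of all genes were called higher and 10.2% lower, 3 ligand genes were higher and 2 lower. The genes were not all the same as in Act versus CTRL. *Icam1* was not called against Act + FST (log2 0.12, limma adjusted p = 0.221). *Fn1*, which codes for fibronectin, was called higher there (log2 2.00, adjusted p = 0.0144) but not against CTRL (log2 0.99, adjusted p = 0.213).

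Of the 20 listed genes that act on integrins from inside, 16 were tested, of which 3 were higher and 1 lower with a median of 0.004 on the log2 scale. *Cyth1*, whose product cytohesin-1 binds the β2 tail, rose from 837 to 1223 normalized counts (log2 0.55, limma adjusted p = 0.000198). *Rapgef1*, an exchange factor of the GTPase RAP1, rose by 0.36 (adjusted p = 0.000324), and *Tln2*, a talin, rose by 1.19 from a low level of 14.7 (adjusted p = 0.00428). *Tln2* was not called in Act versus Act + FST (log2 0.64, adjusted p = 0.0856). *Apbb1ip*, which codes for the RAP1 effector RIAM, fell by 0.15 (adjusted p = 0.0414).

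All 10 listed inhibitors were tested, and 2 were higher, 1 was lower, and 7 were not called, with a median log2 fold change that rounds to 0. *Arap3*, a GTPase-activating protein, rose from 516 to 1142 normalized counts (log2 1.15, limma adjusted p = 0.0004). *Sipa1*, which switches RAP1 off, rose by 0.26 (adjusted p = 0.00076), and *Dok2*, an adaptor, fell by 0.72 (486 to 295, adjusted p = 7.55e-06). Calls in both directions were thus present among the activators and the inhibitors.

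Among the 18 tested of 19 signalling genes, 7 were higher, 1 was lower, and 10 were not called, with a median of 0.11 on the log2 scale. The Src family kinases *Fgr* and *Src* rose from 103 to 268 and from 90.0 to 235 normalized counts (log2 1.41 and 1.37, limma adjusted p = 0.00331 and 0.000461). *Plcg2*, a phospholipase, rose by 0.36 (adjusted p = 0.000425). *Ptk2*, the focal adhesion kinase, was the 1 that fell, from 153 to 47.0 (log2 -1.73, adjusted p = 0.000288).

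Of 21 linker genes tested of 23 listed, 2 were higher, 5 were lower, and 14 were not called, with a median of -0.03 on the log2 scale. *Tns1*, a tensin, fell from 2121 to 1143 normalized counts (log2 -0.90, limma adjusted p = 3.29e-05), and *Vcl*, which codes for vinculin, fell from 587 to 365 (log2 -0.69, adjusted p = 0.00147). *Lims2*, a partner of the integrin-linked kinase, fell by 2.50 from 21.7 to 3.0 (adjusted p = 0.00486). *Nedd9*, a docking protein, rose by 0.95 (386 to 749, adjusted p = 8.26e-05). In Act + FST the means of *Tns1*, *Vcl*, and *Nedd9* were 2086, 599, and 356, and that of *Lims2* was 9.7. *Lims2* was not called in Act versus Act + FST (log2 -1.28, adjusted p = 0.108).

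With the replicate block, which called 16.3% of all genes higher and 15.2% lower in Act versus CTRL, more list genes were called. The counts were then 4 higher and 2 lower among the ligands, 4 and 1 among the activators, 2 and 1 among the inhibitors, 8 and 2 among the signalling genes, and 4 and 5 among the linkers.

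**Figure D5:**
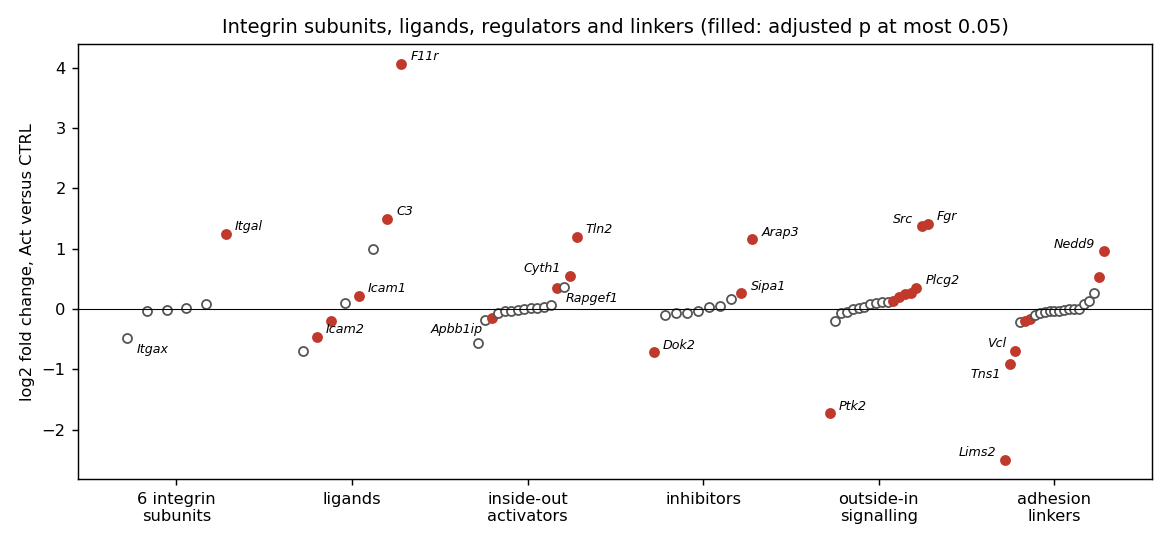
Log2 fold change in Act versus CTRL (y axis) of the 6 integrin subunits and of the tested genes of 5 pathway lists (x axis), with filled points for called genes and open points for the others. *F11r* at 4.07 is the highest point and *Lims2* at -2.50 the lowest, and *Itgal* is the filled point among the subunits.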

How the data were processed

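RNA was sequenced from 12 BMDM libraries. The authors trimmed single-end reads (Trimmomatic 0.39), aligned them to mm10 (STAR 2.7.9a), and counted reads per gene (featureCounts 2.0.2), without those that matched more than 1 gene or region, and they used DESeq2 1.30.0 for their own tests. The deposited values are a signal, namely counts scaled per library and rounded, and neither the scaling formula nor any removal of duplicate reads is given in the sources used here. Averaged over the libraries, no gene exceeded 0.883 normalized counts per exonic base. Original depth is not shown, so no counting intervals were computed.

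Values were tested as log2(value + 1) with limma 3.58.1 in R 4.3.3 (trend on the mean, 4 group means, 12 libraries, two-sided) over the 14318 genes whose mean was at least 5, with Benjamini-Hochberg adjustment over all of them. Genes were called at an adjusted p of at most 0.05, and DEGs also at a fold change of at least 2. Exact permutation tests served for shares. The model was tested on simulated data.

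The labels number the replicates alike in every group. Deviations from group means correlated between 0.157 and 0.481 (mean 0.312) in all 18 pairs of groups with the same number. For this reason the block was used as a paired alternative. The 36 other pairs averaged -0.155, which follows largely from taking deviations from group means and is no separate evidence of pairing. Exonic lengths came from GENCODE on GRCm38 (18359 of 18376 genes).

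All 6 subunits are named, with *Itgb1*, *Itgad*, and *Itgae*, up to 4 called genes of each list with the largest absolute log2 fold change in Act versus CTRL, and the 3 genes most like *Itgal*. *Fn1* is named in addition for its call in Act versus Act + FST. The members and lists were chosen with earlier results of these data known. Alternatives were pseudocounts of 0.5 and 5, no filter or a mean of at least 50, quantile normalization, median-of-ratios rescaling, a test against a fold change of 1.2, a DEG threshold of 1.5, a fit to the compared libraries alone, the replicate block, each library left out, and shares not divided by length. Unshared exonic bases and a correction for reads with shared start positions (value = -L ln(1 - value/L), with L the exonic bases) were added after the data were seen.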

Additional observations from a re-analysis of the deposited data

Results flagged for a closer look

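*Itgal* was set apart because the effect of activin A differed between cells without and with FST288 in a test of the difference itself, the interaction term of the limma fit. The log2 difference between both effects was 1.05 (SE 0.18, adjusted p = 0.00419, and 0.000107 with the replicate block). The effect was 1.24 without FST288 and 0.19 with it.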

How the results depend on the processing

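The rise of *Itgal* in Act kept its direction and its call under all 16 alternatives, with log2 fold changes of 1.13 to 1.38 against CTRL and 0.91 to 1.19 against Act + FST, the highest adjusted p being 0.000266 and 0.000996. The number of subunits called changed with the replicate block, the paired analysis, to 2 in Act versus CTRL, 3 in Act versus Act + FST, 1 in Act + FST versus CTRL, and 1 in Act + FST versus FST, by *Itgax* in each and also *Itga4* in the second. The block changed no other call among the subunits, and for shares the exact permutation of signs within replicate numbers cannot go below p = 0.25. With only the libraries compared, 2 subunits were called in Act versus CTRL, with *Itgax* at an adjusted p of 0.0346. All 12 libraries enter the interaction, so that setting has no value there. With 1 library left out, subunits called in Act versus Act + FST numbered 1 to 2 (2 without Act + FST replicate 1). DEGs among the subunits numbered 0 to 1 in Act versus Act + FST (0 without Act replicate 3 or Act + FST replicate 3) and 0 to 1 in the interaction (0 without CTRL, Act, or Act + FST replicate 3), because *Itgal* came below a fold of 2.

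Share differences moved with the length used. Per unshared base, Act minus CTRL was 18.2 percentage points for *Itgal*, -10.3 for *Itgam*, and -7.90 for *Itgax*, and Act minus Act + FST was 0.625 for *Itgax*, opposite in sign to the -1.93 reported. The latter ranged from -3.49 to 0.26 with 1 library left out. The correction for shared start positions gave 26.9 for *Itgal*.

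Of 44 sign changes in 16 results, 42 were in log2 fold changes, and 0 of these had an adjusted p of at most 0.05. The other 2 were in the *Itgax* share in Act minus Act + FST, which has no adjusted p. Quantile normalization turned the sign of *Itgam* in Act versus CTRL (-0.0074), in Act versus Act + FST (-0.0174), and in the interaction (-0.0226), of *Itgb2* in FST versus CTRL (-0.0019), and of *Itga4* in Act + FST versus FST (0.0004). With 1 library left out, the log2 ranges that crossed 0 were as follows. In Act versus CTRL they were -0.0179 to 0.0804 for *Itgam*, -0.0657 to 0.0255 for *Itgb2*, and -0.2216 to 0.1071 for *Itgb7*. In Act versus Act + FST the range was -0.0304 to 0.0525 for *Itgam*, and in Act + FST versus CTRL -0.0316 to 0.0695 for *Itgam*. In FST versus CTRL they were -0.1169 to 0.0834 for *Itgal*, -0.0439 to 0.0551 for *Itgam*, -0.0384 to 0.0528 for *Itgb2*, and -0.09 to 0.0492 for *Itga4*. In Act + FST versus FST they were -0.0272 to 0.0557 for *Itgam*, -0.1175 to 0.0162 for *Itga4*, and -0.1532 to 0.0358 for *Itgb7*. In the interaction they were -0.0348 to 0.0659 for *Itgam*, -0.0203 to 0.4179 for *Itgax*, and -0.1609 to 0.1677 for *Itgb7*. Only 3 libraries per group and values without read depth limit what can be shown.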
